A study of Rattus norvegicus with 20 samples.

Results

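Lungs labelled T were set against lungs labelled NL, on expression arrays hybridised with total RNA of the whole organ from rats, in a time series of pulmonary hypertension with neointimal growth. The members were chosen by their titles alone: T arrays 18, 19 and 20 and NL arrays 2 to 6, or 8 of the 20 arrays of the series. The others are labelled Day 14 (2 arrays), Day 21, Day 28 and Day 35 (3 each) and Normal Day 0 (1). The main tests left out the Normal Day 0 array, which entered only the alternatives that added it to NL. The labels expand neither T nor NL, give T no day, and state no strain, age, surgery, drug or vehicle for any group, so the agent or operation that T and NL share or differ in is not known here. Whether each array stands for its own animal is not stated either; p-values therefore measure the spread between arrays, which may be technical. Each array holds 1185 probes, 702 with names starting R and 483 starting RG. No probe name (0 of 1185) was found in the RefSeq gene table used here. Probes are therefore given by name only, no gene list or lung marker could be looked up, and no sequence is shown. All values are the deposited ones, centred near 0 in each array; they look logarithmic, but the base is not stated, so differences are in deposited units and not folds.

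Neointimal lesions form when smooth-muscle-like cells and matrix build up inside the inner lining of small pulmonary arteries, which narrows the lumen and raises the pressure against which the right heart pumps. Whole-lung RNA mixes the vessel wall with airway and alveolar epithelium, endothelium, resident and recruited immune cells and blood. In such a mixture a change in the number of cells of a type and a change in RNA per cell cannot be told apart.

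NL arrays 4, 5 and 6 stood apart from NL arrays 2 and 3 and from every other array of the series. Probe R529 read 8.19, 6.80 and 6.17 in NL arrays 4, 5 and 6, where no probe was brighter (0 of 1185). It read -0.24 and -0.60 in NL arrays 2 and 3, between -0.54 and -0.11 in T, and between -0.90 and -0.08 in the 12 remaining arrays. Probe R643 went the other way: NL arrays 4, 5 and 6 read 0.29, 0.05 and -0.03, NL arrays 2 and 3 read 4.34 and 4.73, the T arrays lay between 4.43 and 4.84, and the 12 remaining arrays between 3.15 and 5.03. In all, 6 of 1185 probes were higher in NL arrays 4 to 6 than in all 17 other arrays by over 1 unit, and 2 were lower by over 1 unit. For the T arrays as a set of 3 these counts were 0 and 0, and for Day 35 also 0 and 0. With a gap of any size, 21 probes were higher and 26 lower in NL arrays 4 to 6. At that cut the counts were 0 and 0 for T, 10 and 4 for Day 35, and 16 and 1 for NL arrays 2 and 3. R529 and R643 were singled out after their values were seen. The interquartile range of values also differed between arrays of 1 label: 1.36 and 1.49 in NL arrays 2 and 3 against 0.91, 0.42 and 0.42 in NL arrays 4 to 6, and 0.61 in T array 18 against 1.50 and 1.54 in T arrays 19 and 20. Over the tested probes it averaged 1.22 ± 0.53 (SD, n = 3) in T and 0.92 ± 0.50 (n = 5) in NL, a difference of 0.30 that an exact two-sided permutation test over 56 splits did not separate (p = 0.429). Results are given with and without NL arrays 4 to 6 for this reason.

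**Figure D1:**
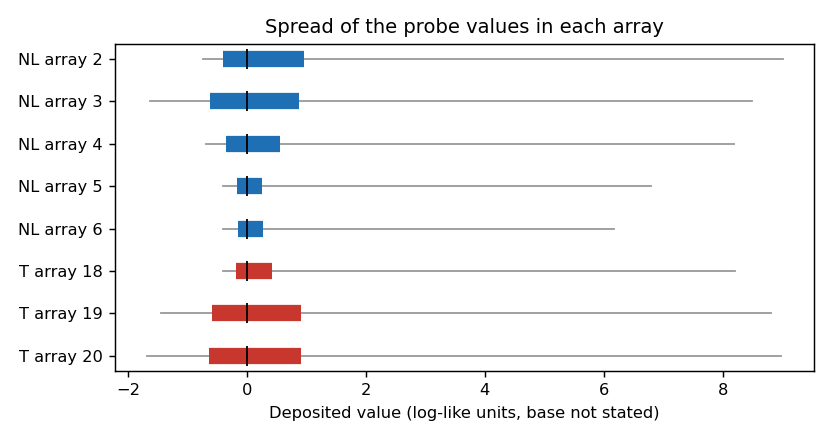
Spread of the 1185 deposited values in each of the 5 NL (blue) and 3 T (red) arrays; thick bars run from the first to the third quartile, thin lines from the lowest to the highest value, and ticks mark medians. All medians sit at 0, while the bars of NL arrays 5 and 6 and of T array 18 are much shorter than those of NL arrays 2 and 3 and T arrays 19 and 20.

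Against NL, T had 4 probes that rose and 1 that fell. R706, R098, R272 and R511 stood at or below percentile 65.4 of the probes in every NL array (R272 as low as percentile 4.30 in NL array 5) and at or above percentile 87.7 in every T array. RG468 stood at or above percentile 92.2 in NL and at or below percentile 61.6 in T. A probe was called when its limma adjusted p was under 0.05; 5 of 1179 probes tested were called, or 0.424%, with 0.339% called higher and 0.0848% called lower. Unadjusted p was under 0.05 for 73 probes (6.19%), 50 of them higher in T (4.24%) and 23 lower (1.95%). The calls depended on single arrays and on scale. Limma called 0 probes without NL arrays 4 to 6 (66 at an unadjusted p under 0.05), 0 without T array 20 (50), 0 without T array 19 (42) and 0 once every array was brought to the same interquartile range (112). It called 3 without T array 18, all among the 5, and 11 without NL array 2, which held all 5. Leaving arrays out also changed the standard errors. For R098 the standard error was 0.61 with all arrays, 0.83 without NL arrays 4 to 6 and 0.72 without T array 19. For R511 it went from 0.34 to 0.32 without T array 18. How far the lost calls go with the number of arrays was not tested.

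R706 read 0.28 and 0.28 in NL arrays 2 and 3, and -0.12, -0.11 and -0.11 in NL arrays 4, 5 and 6. In T arrays 18, 19 and 20 it read 2.99, 3.78 and 5.08. The lowest T array stood 2.71 above the highest NL array. The difference was 3.91 (SE 0.71, 95% interval 2.39 to 5.42, limma adjusted p = 0.0162; range over alternatives 0.00267 to 0.305). Without NL arrays 4 to 6 it was 3.67 (adjusted p = 0.184), without T array 19 it was 3.99 (0.0755) and without T array 20 it was 3.34 (0.172). Ranked within each array, R706 stood at percentiles 34.0 to 59.3 of the 1185 probes in NL and at percentiles 97.1 to 98.8 in T.

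R098 read 0.25, -0.28, 0, 0.12 and -0.16 in NL arrays 2 to 6. It read 3.12, 3.05 and 3.61 in the T arrays, the tightest of the 4 higher probes in T (3.26 ± 0.31, SD, n = 3). Its T and NL arrays were 2.80 apart at the nearest. The difference was 3.27 (SE 0.61, 95% interval 1.99 to 4.56, limma adjusted p = 0.0162; range over alternatives 8.24e-05 to 0.319). It stayed between 3.06 and 3.55 in all 18 alternatives, but the call was lost in 5 of them: without T array 18 (3.34, adjusted p = 0.0546), T array 19 (3.38, 0.0755) or T array 20 (3.10, 0.166), with NL arrays 2 and 3 alone as the reference (3.28, 0.184) and with the interquartile ranges made equal (3.55, 0.319).

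R272 read 0.33, -0.06, -0.07, -0.29 and -0.27 in NL arrays 2 to 6 and 1.57, 2.46 and 2.37 in the T arrays. T and NL did not overlap, with 1.24 between the nearest arrays. The difference was 2.21 (SE 0.37, 95% interval 1.43 to 2.98, limma adjusted p = 0.00989; range over alternatives 0.00436 to 0.223). The Normal Day 0 array read 1.69 for this probe, above T array 18. With that array added to NL the difference was 1.91 and no longer called (adjusted p = 0.0928). Without NL arrays 4 to 6 it was 2.00 (0.184), without T array 19 it was 2.04 (0.0755) and without T array 20 it was 2.09 (0.111).

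R511 read -0.09, -0.46, -0.14, 0.07 and -0.15 in NL arrays 2 to 6 and 0.97, 2.68 and 2.05 in T arrays 18, 19 and 20. T array 18 was the low one, 0.90 above the highest NL array. The difference was 2.05 (SE 0.34, 95% interval 1.33 to 2.78, limma adjusted p = 0.00989; range over alternatives 0.00119 to 0.144). Without NL arrays 4 to 6 it was 2.18 (0.144), without T array 19 it was 1.66 (0.0755), and without T array 20 it was 1.98 (0.111).

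RG468 was the 1 probe called lower. It read 2.45, 2.95, 1.78, 2.06 and 1.56 in NL arrays 2 to 6, and 0.01, -0.07 and 0.36 in the T arrays. All 3 T arrays lay at least 1.20 below the lowest NL array. The difference was -2.06 (SE 0.41, 95% interval -2.93 to -1.19, limma adjusted p = 0.0271; range over alternatives 0.0109 to 0.217). Within the arrays it stood at percentiles 92.2 to 97.6 in NL and at percentiles 47.1 to 61.6 in T, so that a probe among the brightest in every NL array was near the middle in every T array. Unlike R529, it was at least as high in NL arrays 2 and 3 as in NL arrays 4 to 6, and without the latter the difference was -2.60 (adjusted p = 0.117). The call was also lost without NL array 3 (-1.86, 0.0562), NL array 5 (-2.09, 0.0583), T array 18 (-2.02, 0.0829), T array 19 (-1.98, 0.217) or T array 20 (-2.19, 0.142).

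**Figure D2:**
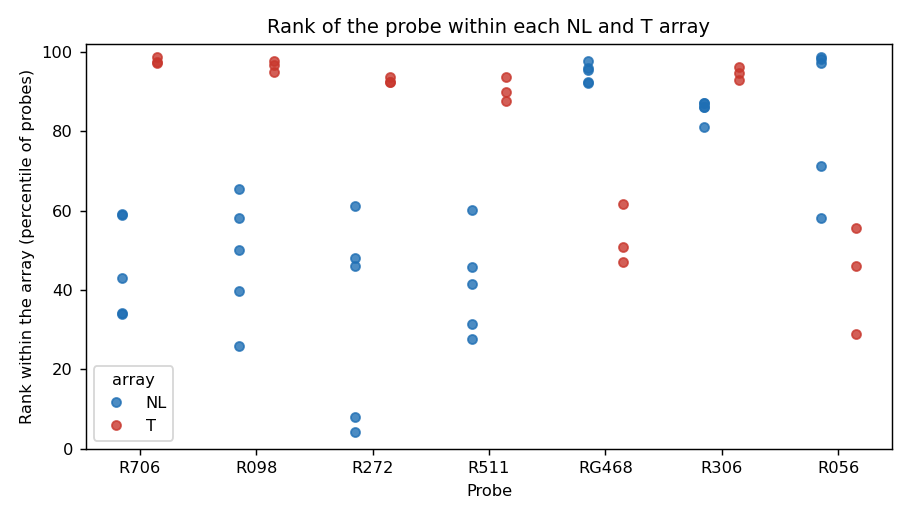
Rank of 7 probes within each of the 5 NL (blue) and 3 T (red) arrays, as a percentile of the 1185 probes, which does not depend on the spread of an array. R706, R098, R272 and R511 lie at or below percentile 65.4 in NL and at or above percentile 87.7 in T; RG468 lies at or above percentile 92.2 in NL and at or below percentile 61.6 in T; R306 and R056 are the uncalled probes of smallest p in the higher and the lower direction.

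The size of the differences was also taken between arrays of like spread; since T and NL do not overlap for these probes, their sign is fixed in such subsets. T arrays 19 and 20 against NL arrays 2 and 3, whose interquartile ranges were above 1, differed by 4.15 for R706, 3.35 for R098, 2.28 for R272, 2.64 for R511 and -2.56 for RG468. T array 18 against NL arrays 4, 5 and 6, whose ranges were below 1, differed by 3.10, 3.13, 1.78, 1.04 and -1.79 for the same probes in that order. A fit with this spread class as a block called 7 probes, all 5 among them. R706, R272 and R511 were lowest in T array 18, the T array of narrow spread. By rank within the array only R511 was also lowest there, at percentile 87.7 against 93.6 and 90.0 in T arrays 19 and 20, whereas R272 stood at percentile 93.7 against 92.4 and 92.3. The part of the spread in these values was not tested further.

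**Figure D3:**
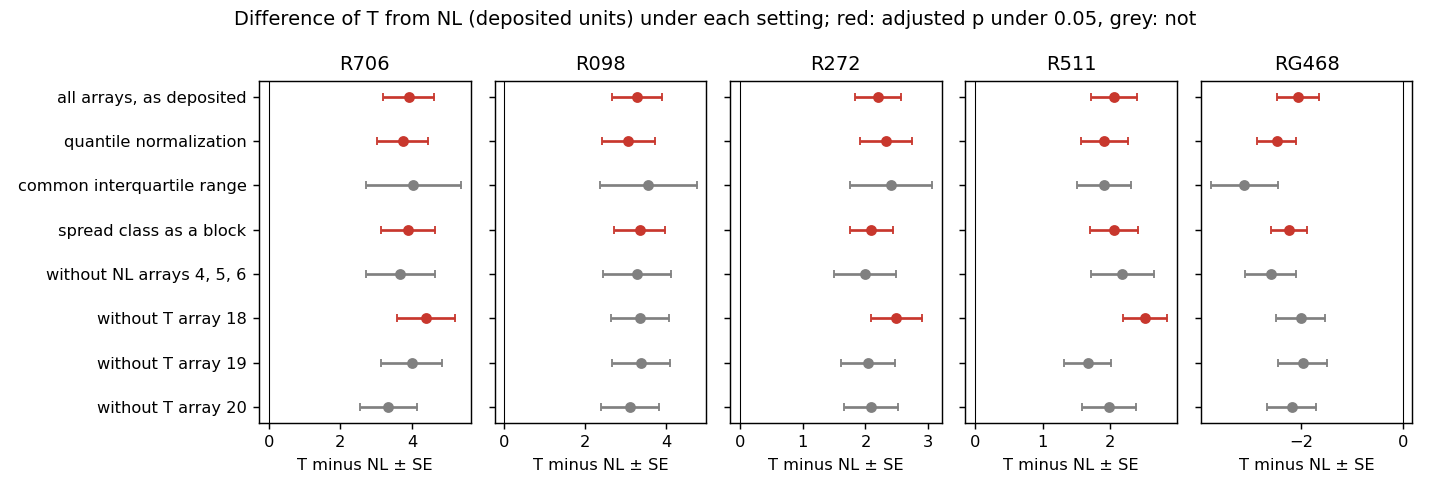
Difference of T from NL (points, deposited units) with its standard error (bars) for the 5 called probes under 8 settings; red points had a limma adjusted p under 0.05 and grey points did not. All 5 probes turn grey where interquartile ranges were made equal, where NL arrays 4 to 6 were left out and where T array 19 or T array 20 was left out; R098 and RG468 are also grey without T array 18.

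In each direction, the uncalled probe of smallest p was R306 (higher) and R056 (lower). R306 read 1.68, 1.63, 1.20, 0.53 and 0.40 in NL arrays 2 to 6 and 2.39, 2.51 and 2.80 in the T arrays, a difference of 1.48 (SE 0.32, limma adjusted p = 0.0508; range over alternatives 0.0182 to 0.554). NL arrays 2 and 3 were the highest NL arrays for R306, and against them alone the difference was 0.91 (adjusted p = 0.554). R056 read 0.77, 0.26, 4.27, 2.33 and 2.02 in NL arrays 2 to 6 and 0.06, -0.53 and -0.07 in the T arrays. Its difference was -2.11 (SE 0.59, limma adjusted p = 0.204; range over alternatives 0.0366 to 0.832). The high NL values of R056 were those of arrays 4 to 6, and without them the difference was -0.70 (adjusted p = 0.618).

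The largest differences over the whole table were not the called ones alone. Of 4 probes with a mean at least 2 units lower in T, 3 (R529, R699 and R056) read higher in each of NL arrays 4, 5 and 6 than in NL arrays 2 and 3, and RG468 was the exception. Choosing probes lower in T favours high NL values, and the share of all tested probes with this pattern was not counted. R529 had the largest difference of all, -4.42 (SE 1.51, limma adjusted p = 0.421; range over alternatives 0.0722 to 1), and it was 0.06 without NL arrays 4 to 6. R699 read -0.24 and -0.12 in NL arrays 2 and 3, then 4.31, 2.88 and 2.68, and between -0.62 and -0.19 in T; among the 12 remaining arrays it reached 3.96. Of 6 probes more than 2 units higher in T, 4 were the called ones, and the ranges of T and NL overlapped for the other two, R643 and RG434. RG434 read 4.73, 3.01, 2.50, 1.92 and 1.52 in NL arrays 2 to 6 and from 4.28 to 5.42 in T. R699, RG434 and R529 are named here because of their values.

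T and NL ranges did not overlap for 54 probes (4.58%), 36 of them higher in T (3.05%) and 18 lower (1.53%). Most were narrowly apart: the median gap between the nearest T and NL arrays was 0.14, and the gap exceeded 1 for 3 higher probes (R706, R098 and R272) and 1 lower probe (RG468). The median difference was 0.82 over the 36 and -0.39 over the 18. The 36 comprised 32 R probes (4.57% of the 700 tested) and 4 RG probes (0.835% of 479), and the 18 comprised 9 of each (1.29% and 1.88%). R probes were also brighter, with a median level of 0.15 over 19 arrays against -0.12 for RG probes.

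The balance of higher and lower probes went with level and with scale. Over quartiles of mean level from the dimmest to the brightest, the median difference of T from NL was -0.26, -0.08, 0.11 and 0.39, as deposited. On arrays brought to the same interquartile range it was -0.07, 0.00016, 0.06 and -0.02. The share of higher probes among those that did not overlap was 66.7% as deposited, 53.2% after quantile normalization (41 higher, 36 lower) and 43.5% with a common interquartile range (30 higher, 39 lower). No direction of the whole table is therefore read from the deposited scale. The count of probes that did not overlap was 187 without NL arrays 4 to 6 (69 higher), 104 without NL array 2 (79 higher), 87 without NL array 3 (53 higher), 214 without T array 18 (77 higher), 97 without T array 19 (69 higher) and 81 without T array 20 (44 higher); fewer arrays leave more room for such gaps.

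**Figure D4:**
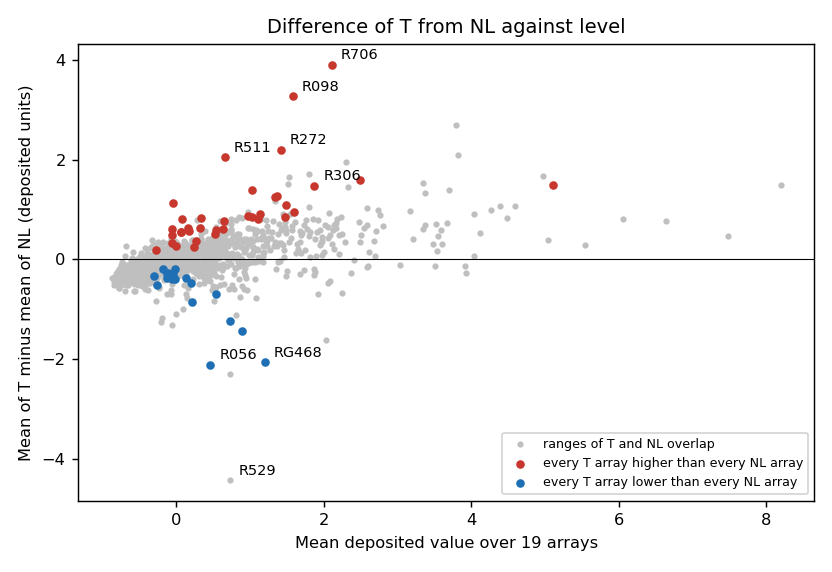
Mean of the 3 T arrays minus mean of the 5 NL arrays for each of 1179 tested probes against its mean over 19 arrays, in deposited units. The 36 probes higher in every T array are red, the 18 lower in every T array are blue, and the rest grey. R706, R098, R272 and R511 stand above the cloud, RG468 and R056 below it, and R529, lowest of all, overlaps between the groups. Grey points without a name include R643 (2.69), RG434 (2.10) and R699 (-2.29).

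The 5 probes were placed beside the labelled days for their levels in T. T and Day 35 share the NL arrays as reference, so each is given by its own values. R706 averaged 4.46 ± 0.49 (SD, n = 3) at Day 35, 1.87 ± 0.24 at Day 28 and 3.95 ± 1.06 in T, and its T arrays all lay above the 3 Day 28 arrays (highest 2.02). R098 averaged 3.33 ± 0.63 at Day 35 and 1.39 ± 0.40 at Day 28, with T again above the highest Day 28 array (1.85). R511 read from 2.08 to 2.21 at Day 35, from 0 to 0.31 at Day 28 and from -0.16 to -0.08 at Day 14, and its lowest T array, at 0.97, was above the Day 28 arrays. R272 in T, from 1.57 to 2.46, overlapped with Day 28 (1.04 to 2.10) and Day 35 (2.31 to 3.22). RG468 read 1.51, 0.34 and 0.15 in Day 35 arrays 15, 16 and 17 and from 0.38 to 1.12 at Day 28, and Day 21 array 9 read 0.06, within the T range. Day 21 array 9 also read 4.73 for R706 and 4.11 for R098, inside and above the T ranges, while Day 21 arrays 10 and 11 were at 1.05 or lower for both. For R511, Day 21 array 9 read 1.24, within the T range, and arrays 10 and 11 read -0.12 and -0.34. For R272, array 9 read 2.93, above every T array, and arrays 10 and 11 read 1.18 and 1.72.

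In the direct comparison of T with Day 35, which uses no NL value in the difference, limma called 0 of 1179 probes (0%), with 19 (1.61%) at an unadjusted p under 0.05 and a smallest adjusted p of 0.354. T minus Day 35 was -0.51 for R706 (95% interval -2.20 to 1.18), -0.07 for R098 (-1.51 to 1.36), -0.72 for R272 (-1.58 to 0.15), -0.24 for R511 (-1.05 to 0.57) and -0.57 for RG468 (-1.54 to 0.40), all with an adjusted p of 0.999. The intervals leave room for differences of 1 unit or more for R706, R098, R272, R511 and RG468, so that equal levels are not shown. These probes had been chosen for their difference between T and NL, in a fit whose variance estimate also drew on the Day 35 arrays.

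**Figure D5:**
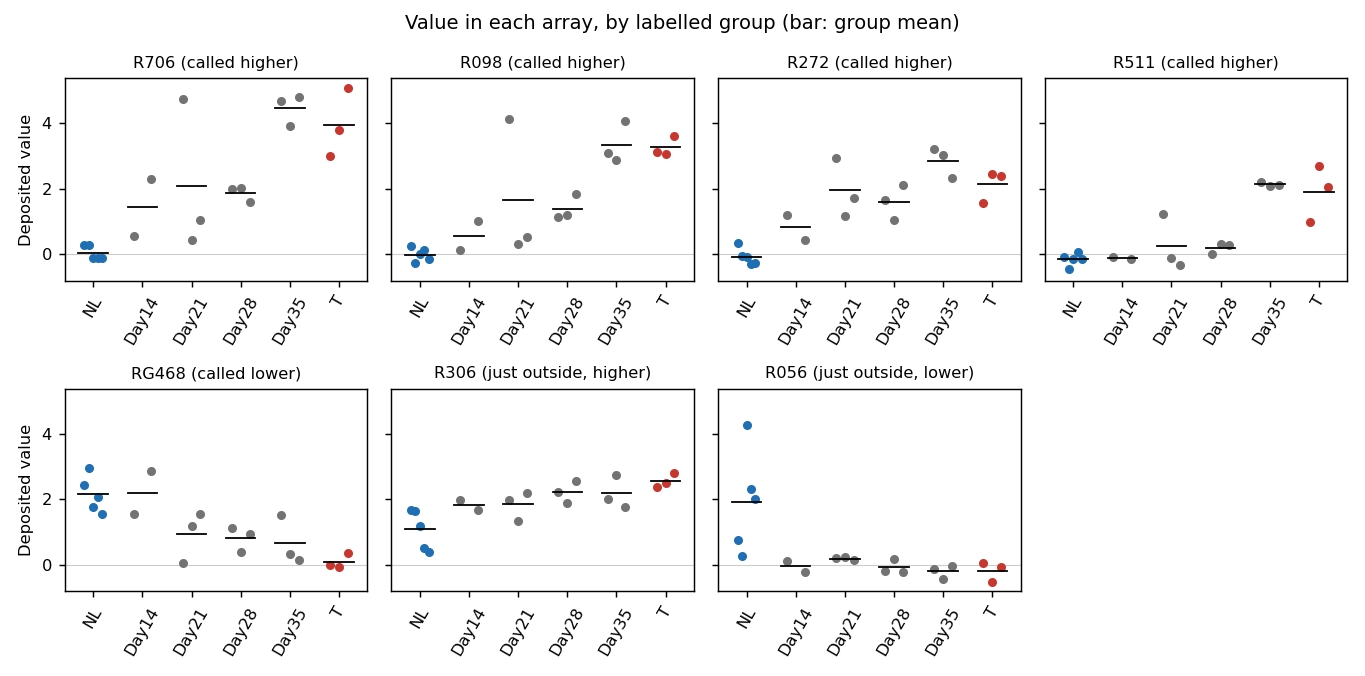
Deposited value of 7 probes in each array by labelled group, NL in blue, T in red and the days in grey, with a bar at each group mean. R706, R098 and R511 in T lie above every NL and Day 28 array and overlap with Day 35; RG468 in T lies below every NL array; the 3 highest values of R056 are those of NL arrays 4 to 6.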

How the data were processed

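Expression was measured on 20 arrays of rat lung total RNA. The authors deposited 1 processed score per probe and array; how (platform, background correction, normalization, base of the log) is not given in sources used here. Scores as deposited lie between -1.95 and 9.71; array medians are near 0, and spreads differ. Signal over background is not given. Groups were taken from titles.

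A probe was tested if at least 3 of the 19 arrays read above -0.32 (percentile 25 of all their values); 1179 were and 6 were not. Limma 3.58.1 in R 4.3.3 fitted 1 model to 19 arrays in 6 groups (13 residual degrees of freedom; lmFit and eBayes), with two-sided tests and Benjamini-Hochberg adjustment over all probes tested. No batch is labelled, so no covariate was used. The design was written for log values; the scores were used as deposited, with no floor.

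Named probes are every called probe of a direction with 5 or fewer, and the uncalled probe of smallest p in each direction; others named were picked for their values. Members, rules and tests were chosen with earlier results of these data known. The gene lists in the plan were not used, since the probes carry no gene names here. The fit was tested on simulated data whose noise, for a given probe, had the same spread in every array. That test could not cover arrays of unequal spread or NL arrays that stand apart. Alternatives covered normalization, floor, filters, the groups fitted, the variance model, the Normal Day 0 array and arrays left out; the spread class as a block, the Normal Day 0 array for overlap counts and the spread without NL arrays 4 to 6 were added after seeing the data. Python 3.11.15 with matplotlib 3.10.9 drew the figures.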

Additional observations from a re-analysis of the deposited data

Results flagged for a closer look

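The Normal Day 0 array, which is in none of the main tests, exceeded all 5 NL arrays for 4 of the 7 rule-chosen probes: 0.40 for R098, 1.69 for R272, 0.15 for R511 and 2.47 for R306. For R306 it lay within the T range and for R272 above T array 18, while for R098 and R511 it lay below every T array. These probes had been chosen as higher than NL, which favours low NL values. Over the 1179 tested probes, the Normal Day 0 array was above all 5 NL arrays for 151 and below all 5 for 60. The same counts were 163 and 116 in T array 18, 202 and 279 in T array 19, and 196 and 283 in T array 20. In Day 21 array 10 they were 113 and 71. Lying outside the NL range was thus not particular to the Normal Day 0 array. Among the 5 NL arrays, Dixon's test of the farthest array found 0 outliers in 9 measures. For measures not chosen by their values, chance gives about 1 in 20. That rate need not hold here, since the 7 rule-chosen probes and R529 were picked by their T and NL values. Dixon's test also cannot find 3 arrays that stand apart together, as NL arrays 4 to 6 do for R529.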

How the results depend on the processing

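The count of called probes, 5 as deposited, was 0 with a common interquartile range, 11 with values floored at the 20th percentile, 0 without NL arrays 4 to 6, and 0 to 11 when single arrays were left out; the other alternatives run gave 4 to 7. The count of probes whose ranges did not overlap, 54, was 187 without NL arrays 4 to 6 and 60 to 214 when single arrays were left out. The difference in interquartile range, 0.30, was -0.20 without NL arrays 4 to 6 (exact permutation p = 1), and 0.14 to 0.60 when single arrays were left out. Over 18 alternatives each, the differences from NL ran from 3.34 to 4.39 for R706, 3.06 to 3.55 for R098, 1.91 to 2.49 for R272, 1.66 to 2.52 for R511 and -3.12 to -1.86 for RG468. Where arrays were left out, their sign is no sign of stability, since T and NL do not overlap for these probes. The filters, the groups fitted and the variance model leave the differences themselves unchanged. R529 turned to 0.06 without NL arrays 4 to 6. Against Day 35, where no difference was called, R098 turned to 0.31 with a common interquartile range, and leaving out single arrays changed the sign for R098 (-0.31 to 0.28; above 0 without Day 35 array 17 or T array 19), R511 (-0.63 to 0.23; above 0 without T array 18) and R056 (-0.11 to 0.19; below 0 without Day 35 array 16, T array 18 or T array 20). The cause was not tested. No paired analysis was possible because the labels do not say which animal an array came from. The number of arrays limits the precision.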
